A study of Mus musculus with 2 samples.

Results

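The Mef2 genes encode the 4 members of the myocyte enhancer factor 2 family in the mouse, Mef2a, Mef2b, Mef2c and Mef2d, and they were taken by name from the GENCODE M21 annotation, 4 of its 21938 protein-coding genes. Around them, the members counted were 20 start regions, out of 52546 of all protein-coding genes, and 60 distal peaks, out of 56656 in the series. A start region is a group of annotated transcript starts of 1 gene that lie within 500 bp of each other. It was open in a library when a peak lay within 500 bp of one of its starts. A distal peak lies more than 500 bp from every annotated start of any gene, and was assigned to a Mef2 gene when its centre lay in the gene body or in the 100 kb on either side. Distal peaks of replicate 1 that overlap a replicate 2 peak by at least 1 bp were counted as shared, and all others as peaks of 1 library alone. Peaks of 1 list that overlap each other were counted apart.

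The data are DNase-seq maps of accessible chromatin from the left cerebral cortex. The animals were 2 female mice, 10 days old, of strain B6CASTF1/J, first-generation hybrids of C57BL/6J and CAST/EiJ. The nuclease DNase I cuts accessible DNA, so dense cuts mark promoters and enhancers (peaks), and footprints are short stretches within them that stay uncut. Both libraries belong to 1 group (n = 2), no other tissue, age or treatment was measured, and both carry 1 donor identifier of the strain although the animals are numbered apart. The spread between them therefore joins animal and technical variation, and all cell types of the cortex are mixed, so that fewer cells of a type and less accessibility per cell cannot be told apart. Reads of the CAST/EiJ copy were not separated from those of the C57BL/6J copy. All coordinates are on mm10.

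MEF2 proteins are DNA-binding factors of the MADS-box family, which bind an AT-rich element as pairs. They were first studied in muscle, and in neurons they take part in differentiation, survival and the activity-dependent adjustment of synapse number. Class IIa histone deacetylases hold them in a repressive state, and calcium-dependent kinases and the phosphatase calcineurin relieve it. Mef2c is the member known for its part in the early development of cortical excitatory neurons, Mef2a and Mef2d are broadly expressed, and Mef2b is best known from germinal-centre B cells.

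The sequences on which the results below turn are shown first, read from the GRCm38.p6 reference, which is the assembly of mm10. The lines for Mef2a, Mef2b and Mef2d hold the open DNA at their starts and the strongest distal peak of Mef2d. The lines for Mef2c hold an intronic peak with repeated MEF2 letters, an intronic peak with a CTCF match and its strongest distal peak. Capitals mark matches to the motifs named before each colon, found on either strand.
Mef2a first start, chr7:67372851-67372925, minus strand, NRF1 then the MEF2 AT core: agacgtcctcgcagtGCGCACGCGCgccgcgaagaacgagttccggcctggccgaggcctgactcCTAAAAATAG
Mef2b second start, chr8:70152601-70152777, plus strand, GGGCGG, octamer ATGCAAAT and CCAATCA: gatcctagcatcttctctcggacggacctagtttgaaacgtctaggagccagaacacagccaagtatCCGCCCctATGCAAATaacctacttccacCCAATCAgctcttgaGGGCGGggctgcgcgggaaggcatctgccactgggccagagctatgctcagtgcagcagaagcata
Mef2d first start, chr3:88142201-88142360, plus strand, GGGCGG: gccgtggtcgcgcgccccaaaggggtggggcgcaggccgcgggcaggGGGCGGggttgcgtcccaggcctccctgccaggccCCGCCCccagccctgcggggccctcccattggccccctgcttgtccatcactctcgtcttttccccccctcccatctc
Mef2d distal, chr3:88138341-88138560, plus strand, CRE TGACGTCA: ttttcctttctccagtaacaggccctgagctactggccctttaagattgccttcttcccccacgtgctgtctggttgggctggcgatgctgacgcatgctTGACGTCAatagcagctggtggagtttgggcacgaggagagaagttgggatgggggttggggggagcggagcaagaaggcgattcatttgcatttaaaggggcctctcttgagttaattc
Mef2c intron, chr13:83603968-83604047, plus strand, MEF2 AT core: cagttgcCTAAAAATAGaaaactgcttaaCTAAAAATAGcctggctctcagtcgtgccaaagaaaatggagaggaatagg
Mef2c intron, chr13:83654981-83655160, plus strand, CTCF: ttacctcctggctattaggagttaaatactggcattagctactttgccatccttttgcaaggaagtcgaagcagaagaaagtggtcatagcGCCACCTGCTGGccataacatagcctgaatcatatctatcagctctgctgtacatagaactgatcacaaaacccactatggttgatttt
Mef2c downstream, chr13:83715061-83715300, plus strand, AGGTCA and TAATTA: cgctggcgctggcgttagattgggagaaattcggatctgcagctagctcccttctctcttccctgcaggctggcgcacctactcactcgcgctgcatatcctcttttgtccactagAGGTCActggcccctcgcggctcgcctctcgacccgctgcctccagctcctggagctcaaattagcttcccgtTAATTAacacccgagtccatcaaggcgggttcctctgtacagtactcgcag

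Both a wide and a narrow MEF2 match were searched, on both strands. The wide one was CTA, any 4 letters, TAG, and the AT core is the part of its matches whose inner letters are all A or T, so every AT core match is counted in both. A match describes letters only, and a missing match says only that these letters are not in the window.

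Each library came with 2 peak lists and 1 footprint list. The smaller lists, used throughout unless the larger are named, held 60071 peaks in replicate 1 and 70563 in replicate 2. The larger held 109563 and 121943, and the footprint lists 212785 and 224029. Promoters of cell type markers were read from the smaller lists. Of 8 markers of cortical excitatory neurons 4 were open in both libraries, beside 55.2% of all protein-coding genes. Open were also 1 of 6 interneuron, 2 of 5 astrocyte, 3 of 5 oligodendrocyte-lineage, 2 of 6 microglial and 1 of 6 endothelial or mural markers, and 0 of 5 skeletal muscle markers. In the larger lists the counts, in the same order, were 6, 1, 4, 3, 4, 1 and 0, beside 61.0% of all protein-coding genes. The part of each cell type in the Mef2 peaks was not tested.

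All 4 Mef2 genes were open at a promoter in both libraries, as were 55.2% of all protein-coding genes. Of the 20 start regions 5 were open in both libraries (1 of 5 in Mef2a, 2 of 2 in Mef2b, 1 of 10 in Mef2c and 1 of 3 in Mef2d), beside 26.7% of the start regions of all protein-coding genes. In the larger lists the genes open in both remained 4, beside 61.0% of all coding genes, and the start regions became 7, beside 31.6%; the added ones were region 2 and region 5 of Mef2c. Counted in replicate 1 alone, 56.0% of coding genes had a promoter peak, and in replicate 2 alone 59.0%, with 4 of the 4 Mef2 genes in each.

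**Figure D1:**
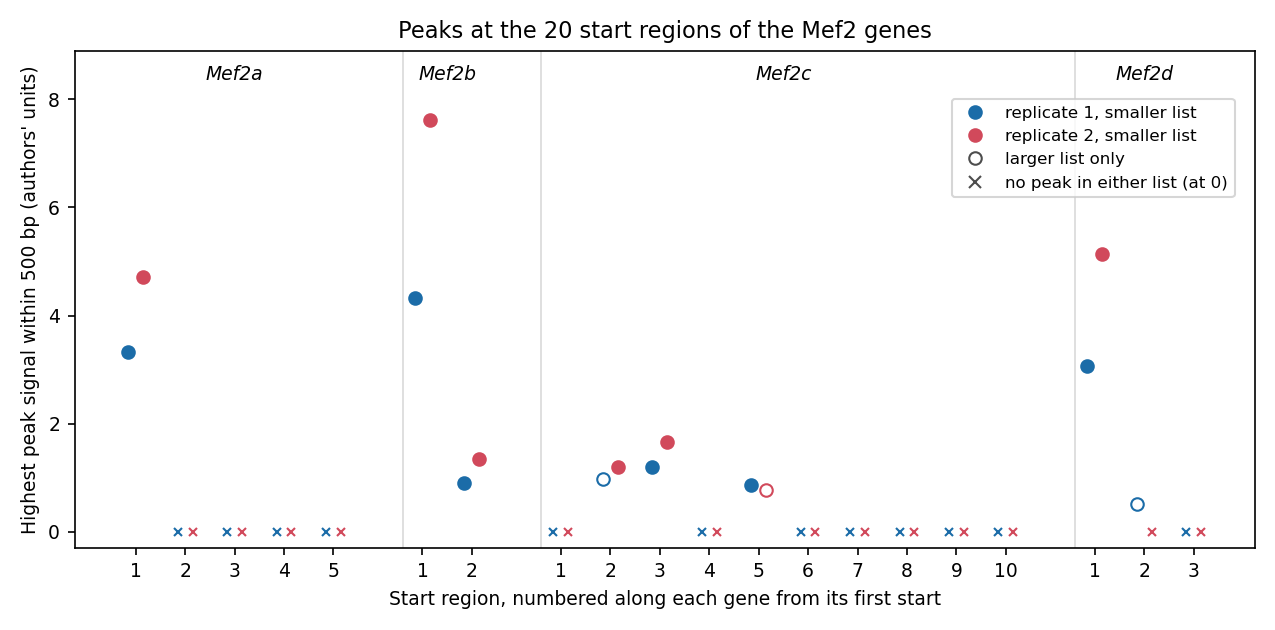
Highest peak signal (authors' units, linear axis) within 500 bp of each of the 20 start regions, numbered along each gene, in replicate 1 (blue) and replicate 2 (red). Open circles are peaks found only in the larger list and crosses at 0 mark no peak in either list; the first start of Mef2c is empty and its open starts sit between 0.766 and 1.66, below the highest peak at the first start region of each other gene.

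Mef2a opened at 1 start only. Region 1, which holds its first start (chr7, position 67372858, minus strand) and 5 protein-coding transcripts, reached 3.33 in replicate 1 and 4.71 in replicate 2, a mean of 4.02 ± 0.98 (SD, n = 2). That is the 67.2nd percentile of the 12105 coding genes open in both libraries, whose median was 2.89. Regions 2 to 5, which start between 55893 and 106696 bp into the gene, had no peak in any of the 4 lists. The sequence around region 1 is rich in G and C, at 73.1% over 1 kb, against 34.0% to 37.1% for the others. Replicate 1 had 8 footprints there and replicate 2 had 7, with 6 of the former overlapping a footprint of the latter.

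Across the first start of Mef2a run the letters CTAAAAATAG, the right-hand capitals of the Mef2a line, at positions 67372851 to 67372860. They lie in the promoter peak of both libraries, and neither library had a footprint on them. Of 32851 promoter windows of RefSeq, 0.557% held an AT core match and 3.69% a wide match, and of the 6 windows that RefSeq gives for the Mef2 genes 1 did. The NRF1 match, the left-hand capitals of that line, stands at position -43 of the gene, under a footprint of 31 bp in replicate 1. In replicate 2, 2 shorter footprints of 12 and 7 bp overlapped its ends and left its middle uncovered. NRF1 letters (GCGC, any 2 letters, GCGC) were in 6.23% of all windows. Mef2a thus carries the target letters of its own family in its open promoter, with no protection called over them.

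Mef2b opened at both of its start regions, at unlike levels. Its first start (chr8, position 70139711, plus strand) belongs to 1 transcript and lies among the starts of Borcs8, while Rfxank starts on the other strand nearby. The highest peak within 500 bp of it, chr8:70139121-70139440 with its centre at -430 bp, reached 4.32 in replicate 1 and 7.62 in replicate 2 (mean 5.97 ± 2.33, n = 2, the 86.4th percentile). That peak covers a start of Rfxank and cannot be assigned to 1 of the 3 genes. The smaller peak that covers the Mef2b start itself had 1.34 and 1.88. The other 4 transcripts of Mef2b start in region 2, 13067 bp further on and past Borcs8, where the signal was 0.892 and 1.34 (mean 1.12 ± 0.32). Replicate 2 was the higher at each of the 3 peaks.

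The region 2 promoter of Mef2b, shown above up to its first transcribed base, holds the octamer ATGCAAAT, CCAATCA and 2 copies of GGGCGG. The octamer was in 1.74% of RefSeq promoter windows, CCAATCA in 7.82% and GGGCGG in 35.7%. Octamer letters are the target of POU factors such as the B-cell protein Oct-2, and CCAATCA is that of NFY. No footprint of either library lay on the octamer or on CCAATCA. The GGGCGG copy nearer the start, at 70152712 to 70152717, had a footprint in both, 9 bp long in replicate 1 and 21 bp long in replicate 2.

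Mef2c had the most start regions of the 4 genes, and its promoter signal was low, below that of Mef2a and Mef2d in both libraries. The gene is 163 kb long, on the plus strand of chromosome 13, and its 31 annotated transcripts begin in 10 regions. Region 1, the first start (position 83504034) with 6 protein-coding transcripts, had no peak in any list, no footprint, and 0 positions with an FDR under 0.05 in either library. Region 3, whose 10 starts begin 20257 bp into the gene and include 8 protein-coding transcripts, was the one open in both, at 1.20 in replicate 1 and 1.66 in replicate 2. The mean was 1.43 ± 0.33 (n = 2), the 20.8th percentile of open coding genes. Its 10 footprints in replicate 1 and 9 in replicate 2 coincided in 3 cases.

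On either side of region 3 the libraries differed in their lists more than in their signal. Region 2, at 19439 bp, had a peak of 1.19 in replicate 2 and, in the larger list only, one of 0.969 in replicate 1. That replicate 2 peak, chr13:83523761-83523954, also lies within 500 bp of a start of region 3 and was counted for both regions. Region 5, at 68314 bp, had a peak of 0.858 in replicate 1 and, in the larger list only, one of 0.766 in replicate 2. The 7 remaining regions of Mef2c were empty in all 4 lists. The open region 3 holds 51.7% G and C over 1 kb, less than the 73.1% of Mef2a and the 70.7% of Mef2d. Regions 1 and 2 of Mef2b, both open, hold a similar 53.2% and 51.3%.

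Mef2d opened at its first start (chr3, position 88142372, plus strand), with 3.06 in replicate 1 and 5.15 in replicate 2 (mean 4.11 ± 1.47, n = 2, the 68.2nd percentile). Region 3 had no peak in any list, and region 2 had only one of 0.519 in the larger list of replicate 1. At the first start, 5 of the 5 footprints of replicate 1 coincided with one of the other library. The longest stretches from 88142277 to 88142316 in replicate 1 and from 88142276 to 88142316 in replicate 2, 40 and 41 bp, and holds the second of the capitals in the Mef2d promoter line, a GGGCGG match read on the minus strand. GGGCGG is the box bound by SP and KLF factors.

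Ordered by the mean of the highest peak within 500 bp of any start, the genes were Mef2b, Mef2d, Mef2a and Mef2c. The place of Mef2b rests on the peak at -430 bp that cannot be assigned to it. By the peak over its own first start, at 1.34 and 1.88, Mef2b lies below Mef2d and Mef2a in both libraries and overlaps Mef2c. By region 2, with a mean of 1.12, it is the lowest of the 4. Mef2d and Mef2a did not differ beyond their spread, and their order turned over between the libraries (Mef2a was higher in replicate 1 and Mef2d in replicate 2). With the peak at -430 bp, the spans of Mef2b, at 4.32 to 7.62, and of Mef2d, at 3.06 to 5.15, overlapped. Mef2c, at 1.20 to 1.66, lay below both values of Mef2a and of Mef2d. With 2 libraries of 1 group no test of these differences was made.

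Distal open chromatin was spread unevenly over the family. In the smaller lists 29 distal peaks of the 4 windows were shared, 21 were in replicate 1 alone and 10 in replicate 2 alone. Mef2a had 5 shared, 4 of replicate 1 and 1 of replicate 2. Mef2b had 6, 0 and 3, Mef2c 13, 16 and 2, and Mef2d 5, 1 and 4. Over the whole series, 82.6% of the distal peaks of replicate 1 were found in replicate 2, and 68.3% of those of replicate 2 were found in replicate 1. Of the distal peaks of replicate 1, 29 of 50 were found in replicate 2 at the Mef2 genes, and 13 of 29 at Mef2c.

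**Figure D2:**
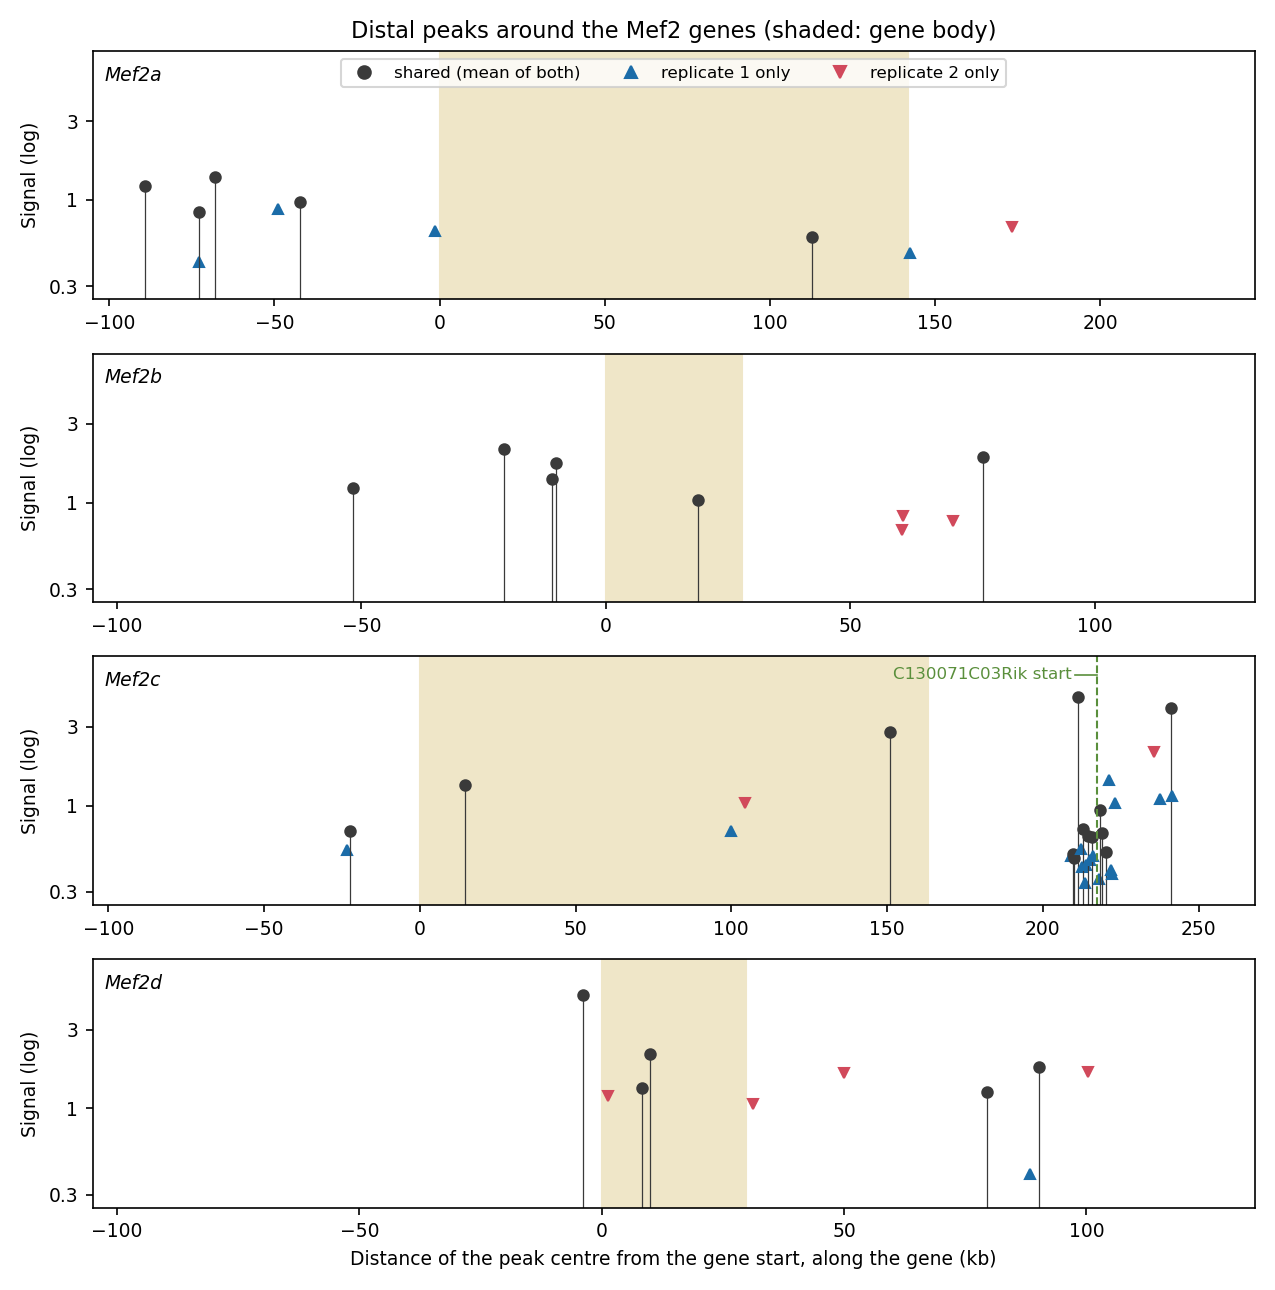
Distal peaks by the distance of their centre from the gene start (kb, along the gene) and their signal (authors' units, log axis); circles are shared peaks at the mean of both libraries, triangles peaks of 1 library, and shading the gene body. Mef2c has 10 of its 13 shared peaks downstream of the gene, crowded around the start of C130071C03Rik (dashed line), and Mef2d has its strongest at -3921 bp.

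Counted per length, the window of Mef2c held 3.58 shared distal peaks per 100 kb, the 92.1st percentile of protein-coding genes. Mef2b held 2.63 (78.5th percentile), Mef2d 2.18 (68.2nd) and Mef2a 1.46 (48.4th), where the median gene held 1.48. These ranks depended on what was counted. That of Mef2c was 98.7 in the larger lists, 75.7 with flanks of 50 kb, 74.9 in the gene body alone, and 71.4 among the stronger 50% of peaks. From all distal peaks of replicate 2, shared or not, it was 81.4, and from all those of replicate 1 it was 99.6. That of Mef2a ran from 31.9 with flanks of 50 kb to 71.9 in the gene body alone. It was 37.4 from all distal peaks of replicate 2 and 70.3 from all those of replicate 1. That of Mef2b ran from 70.3, from all distal peaks of replicate 1, to 91.8 with flanks of 50 kb. Mef2d stood at 95.0 in the larger lists and, with 6.73 shared peaks per 100 kb, at 94.9 in its gene body alone.

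**Figure D3:**
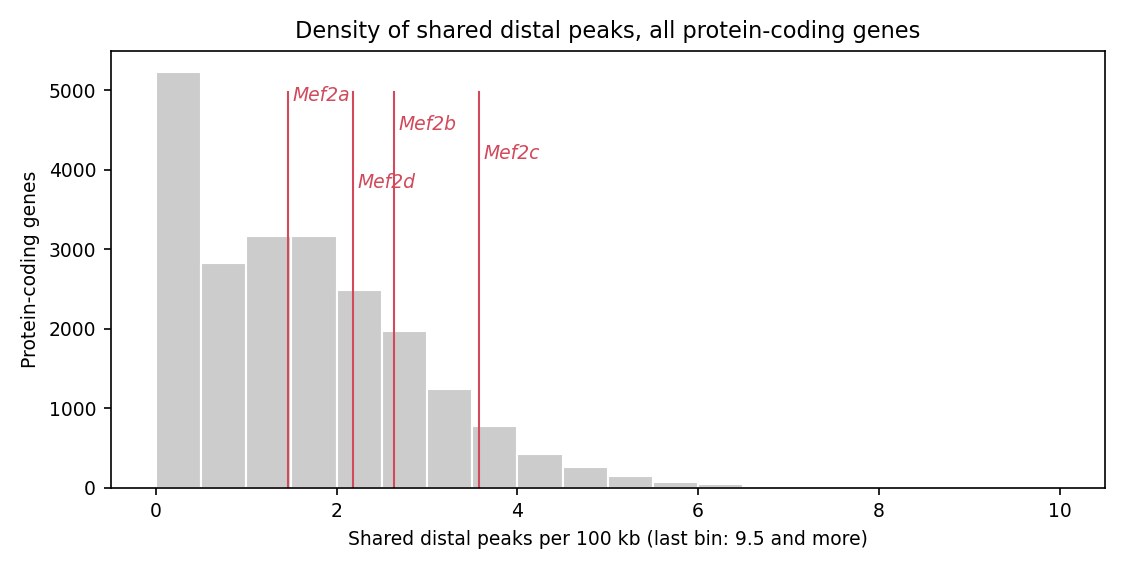
Shared distal peaks per 100 kb of the gene body with 100 kb flanks, as a histogram over the 21938 protein-coding genes (grey bars, bins of 0.5); red lines mark the Mef2 genes. Mef2a, at 1.46, sits at the median of 1.48, and Mef2c, at 3.58, lies in the upper tail.

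The 5 shared distal peaks of Mef2a had mean signals of 0.598 to 1.38 (median 0.973), where the median of the 33824 shared distal peaks of the series was 0.901. Of the 5, 4 lay upstream and 1 in an intron. The strongest, chr7:67440901-67441048, stood at -68117 bp in an intron of the noncoding gene Gm33926, at 1.15 and 1.61 (mean 1.38 ± 0.33, n = 2). The next, chr7:67462007-67462196 at -89244 bp, had 1.13 and 1.30, and chr7:67414923-67415161 at -42184 bp had 0.892 and 1.05. Replicate 2 was higher at 5 of the 5.

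Mef2b sits in a gene-dense stretch, and its shared distal peaks lay mostly in or beside other genes. The strongest, chr8:70118761-70118980, had 1.63 and 2.61 (mean 2.12 ± 0.69, n = 2, the 93.2nd percentile) in an intron of Ncan, which encodes the brain proteoglycan neurocan. The second, chr8:70216721-70216955, had 1.31 and 2.45, between genes and 4533 bp from a start of Slc25a42. The third, chr8:70129347-70129851 at -10112 bp, had 1.38 and 2.08 and held TGACTCA, an AP-1 match. In the gene body itself 1 shared peak was found, chr8:70158394-70158590, at 0.685 and 1.40. The window also holds 7 shared promoter peaks of other genes, up to 6.64 and 9.26 at Slc25a42.

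Mef2d has the strongest distal peak of the family. At -3921 bp, chr3:88138341-88138560 had 4.19 in replicate 1 and 5.49 in replicate 2, a mean of 4.84 ± 0.92 (n = 2), above 99.5% of all shared distal peaks. In both libraries it was stronger than the Mef2d promoter peak, whose values were 3.06 and 5.15. Its sequence, shown above, holds TGACGTCA, the cAMP response element that CREB-family factors bind. Those letters were in 0.458% of all shared distal peaks. Footprints touched them in both libraries, at 88138435 to 88138443 and 88138446 to 88138452 in replicate 1 and at 88138437 to 88138444 in replicate 2. The longest footprints of the peak, 29 bp in replicate 1 and 27 bp in replicate 2, lay further along, ending at 88138511 in both.

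In the Mef2d gene body 2 intronic peaks followed. At 9919 bp, chr3:88152181-88152400 had 1.69 and 2.60 (mean 2.15 ± 0.64), and at 8266 bp, chr3:88150528-88150748 had 1.02 and 1.65. The remaining 2 shared peaks lay downstream around Gm3764, the noncoding host of a copy of the neural microRNA miR-9. The stronger of them, chr3:88232422-88232668, had 1.57 and 2.02. The window holds 10 shared promoter peaks of other genes, up to 8.66 and 11.9.

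The strong shared peaks of Mef2c were 1 intronic and 2 downstream. The intronic one, chr13:83654981-83655160, lies 151037 bp into the gene and had 2.30 and 3.24 (mean 2.77 ± 0.67, n = 2, the 97.1st percentile). It carries a match to the CTCF motif, the binding site of a protein that anchors chromatin loops. The match, the capitals of the second Mef2c line, is under 1 footprint in each library, 31 bp long in replicate 1 and 28 bp long in replicate 2, and these are the peak's only footprints. CTCF letters were in 10.5% of all shared distal peaks. The other intronic shared peak, chr13:83518441-83518535, lies between regions 1 and 2 and had 1.14 and 1.52.

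Downstream of Mef2c, chr13:83715061-83715300 had 3.94 and 5.09 (mean 4.51 ± 0.81, n = 2, the 99.4th percentile). It lies 211147 bp from the gene start and 6200 bp before the start of C130071C03Rik, a long noncoding RNA that hosts another miR-9 copy. It holds AGGTCA (5.36% of all shared distal peaks) and TAATTA, the homeodomain core (3.77%), each touched by a footprint in both libraries. The second, chr13:83744981-83745280, is in an intron of C130071C03Rik, with 3.44 and 4.32 (mean 3.88 ± 0.62). There 2 overlapping NRF1 matches lie under footprints of 23 bp (replicate 1) and 21 bp (replicate 2). NRF1 letters were in 0.813% of all shared distal peaks. Both peaks stand above both values of the Mef2c promoter, and both are nearer to C130071C03Rik than to Mef2c. Which gene they serve was not tested.

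The excess of Mef2c peaks in replicate 1 also lay around C130071C03Rik. Within 10 kb of its start, 9 of the 13 shared peaks, 12 of the 16 of replicate 1 and 0 of the 2 of replicate 2 were found. Outside, the counts were 4, 4 and 2. Distal peaks of replicate 1 within that distance numbered 21, a count reached at 3 of 55413 annotated genes (0.00541%). In replicate 2 they numbered 8, a count reached at 30 genes. Both counts of genes include C130071C03Rik itself, whose start was singled out after the peaks were seen. Some of the 21 are overlapping calls that were counted apart. The shared peak chr13:83713901-83714020 lies inside chr13:83713576-83714183, and both were matched by the same replicate 2 peak. The replicate 1 peak chr13:83720161-83720364 overlaps the shared peak chr13:83719621-83720360. In the whole smaller list of replicate 1, 434 of 60071 peaks overlapped a neighbour in this way. Over the whole window no other protein-coding gene had as large an excess of replicate 1 over replicate 2 peaks as Mef2c, and 55.1% of genes had the reverse, more peaks of replicate 2 alone. Of the 16 peaks of replicate 1 alone, 14 lay downstream of Mef2c, each nearer to a start of C130071C03Rik than to one of Mef2c.

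Most of these peaks were not missing from replicate 2. Of the 16 peaks of replicate 1 at Mef2c, 11 overlapped a peak in the larger list of replicate 2. Of these 11, 4 had the higher signal there, beside 26.2% of such peaks in the series. At chr13:83725081-83725300 the signal was 1.43 in replicate 1 and 1.74 in the larger list of replicate 2, while the lowest FDR inside the peak was 5.10e-25 in replicate 1 and 0.00582 in replicate 2. At chr13:83727081-83727400, 1.04 in replicate 1, replicate 2 had no peak in either list. Over the 4 genes, 15 of the 21 peaks of replicate 1 were in the larger list of replicate 2, beside 71.0% in the series, and 8 of the 10 of replicate 2 were in the larger list of replicate 1, beside 68.5%. These shares were near those of the series.

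The larger lists changed the picture of Mef2c. There it had 29 shared peaks, 8 of replicate 1 and 9 of replicate 2, so the excess of replicate 1 was gone. Mef2a had 10, 7 and 0, Mef2b 9, 3 and 3, and Mef2d 15, 3 and 5. In the series, 77.0% of the larger distal list of replicate 1 was found in replicate 2, and 67.8% the other way.

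**Figure D4:**
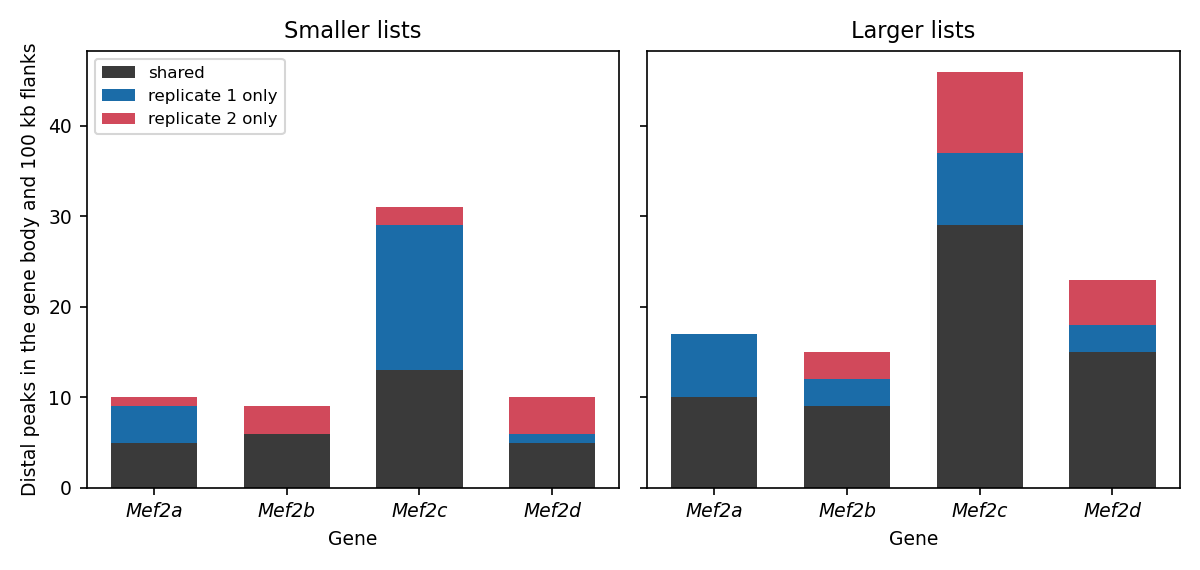
Number of distal peaks in the gene body and 100 kb flanks of each Mef2 gene, stacked as shared (dark), replicate 1 only (blue) and replicate 2 only (red), for the smaller and the larger lists. At Mef2c the 16 peaks of replicate 1 alone against 2 of replicate 2 became 8 against 9 in the larger lists.

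The highest peak of 1 library alone was, at Mef2a, chr7:67421748-67421860 of replicate 1 at 0.879, with 0.750 in the larger list of replicate 2. At Mef2b it was chr8:70200515-70200669 of replicate 2 at 0.826, with 0.706 in the larger list of replicate 1. At Mef2c it was chr13:83739681-83740038 of replicate 2 at 2.11, an exon of C130071C03Rik, with 1.75 in the larger list of replicate 1. At Mef2d it was chr3:88242668-88242764 of replicate 2 at 1.66, with 1.55 in that of replicate 1. In each of the 4 cases the other library thus had a weaker peak in its larger list.

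An 80 bp intronic peak of Mef2c, chr13:83603968-83604047, holds the letters CTAAAAATAG in 2 copies whose first bases are 22 bp apart, as the first Mef2c line shows. It lies 99974 bp into the gene and 21595 bp from the nearest start. Its signal was 0.699 in replicate 1, and replicate 2 had a peak of 0.887 there in its larger list only, so the element was open in both and is counted as a peak of replicate 1. Of 40962 distal peaks of replicate 1, 315 (0.769%) held at least 1 AT core match and 3 (0.00732%) held 2 or more. Neither copy had a footprint in either library. The footprints of 7 bp that each library has in or at the edge of the peak lie elsewhere and do not coincide. This peak was singled out after its letters were seen.

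Among the 29 shared distal peaks, 0 held the wide MEF2 match, beside 3.27% of all shared distal peaks, and 0 the AT core, beside 0.816%. In the larger lists 4 of 63 did, beside 3.62% of all. These were 1 peak at Mef2a, 1 at Mef2b and 2 at Mef2c, the intronic peak above among them. Of the other motifs some were at shares near those of the series and some were not, on counts of 7 peaks or fewer. The E-box CAGATG of NEUROD factors was in 7 of 29 peaks (23.5% of all), the NFI half-site TTGGCA in 7 of 29 (20.9%) and the AP-1 site TGANTCA in 2 of 29 (7%). AGGTCA was in 4 of 29 (5.36%), CTCF letters in 1 of 29 (10.5%) and TGACGTCA in 1 of 29 (0.458%).

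Footprints of the shared distal peaks numbered 83 in replicate 1 and 73 in replicate 2. Of the former 31 coincided with one of the latter, beside 53.8% over all shared distal peaks. At least 1 footprint was in 27 of the 29 peaks in replicate 1, beside 92.7%, and in 27 in replicate 2, beside 92.2%. A footprint of replicate 1 that was found in replicate 2 was in 22 of the 29, beside 75.3%. By gene these were 3 of 5 at Mef2a, 6 of 6 at Mef2b, 10 of 13 at Mef2c and 3 of 5 at Mef2d. At the start regions open in both, the footprints of replicate 1 that were found in replicate 2 were 6 of 8 at Mef2a, 5 of 5 and 1 of 2 at Mef2b, 3 of 10 at Mef2c and 5 of 5 at Mef2d. The 5 at the first start of Mef2b all lie in the peak at -430 bp that cannot be assigned to it. The peak over that start itself had 0 footprints in either library. The Mef2c start region thus held the most footprints, and 3 of its 10 in replicate 1 coincided. Its starts run from 83524291 to 83524920, further than in the other open regions, so its window was longer. Footprints per length were not compared. The share of coinciding footprints over all open start regions was not counted, so these counts have no background beside them.

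Signals were higher in replicate 2. This held at 27 of the 29 shared distal peaks, beside 80.4% of all, with a median log2 ratio of replicate 2 to replicate 1 of 0.36 where the series had 0.29. Signal values come in steps (100% of them lie within 0.01 of a whole number of steps), and the step was 0.00692 for replicate 1 and 0.00758 for replicate 2. Counted in steps, replicate 2 was higher at 24 of 29, beside 68.1%. The 2 exceptions on the authors' scale were chr8:70128521-70128682 at Mef2b, with 1.44 and 1.35, and chr13:83719621-83720360 at Mef2c, with 0.678 and 0.606.

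**Figure D5:**
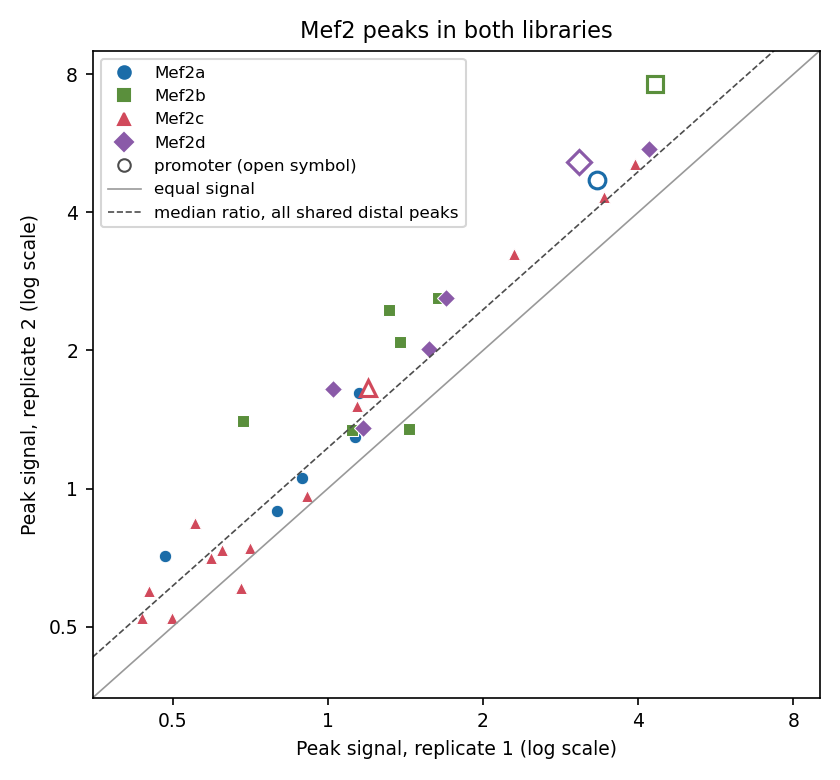
Signal of the 29 shared distal peaks (filled) and of the 4 promoters (open symbols) in replicate 1 and replicate 2, authors' units, both axes log. Most points lie above the line of equal signal, around the dashed line of the series' median ratio, and Mef2c spans the widest range, from 0.479 to 4.51 in mean signal.

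The genes that act on MEF2 proteins or with them had promoter peaks in nearly all cases, and the muscle partners in none. Of the 46 genes of 5 lists 34 were open in both libraries, where 55.2% of coding genes are. Among the class IIa deacetylases, the corepressors of MEF2, 3 of 4 were open, led by Hdac4 (7.40 and 13.3) and Hdac5 (4.79 and 7.52), and Hdac7 had a peak in replicate 2 alone, at 0.932. Among kinases and calcineurin subunits 9 of 10 were open, led by Cdk5 (6.55 and 10.4) and the p38 kinase gene Mapk14 (6.02 and 10.2). Camk4, a calcium-dependent kinase, had a peak in replicate 2 at 1.02, with 0.560 in the larger list of replicate 1.

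Of the cofactors 10 of 10 were open, with Ncoa2 (6.02 and 8.20) and Carm1 (4.99 and 9.15) highest. Of the neuronal targets 12 of 12 were, with Jun (9.64 and 13.4) and Klf6 (7.98 and 10.5) highest. Activity-regulated members were among them, such as Arc, the synaptic cytoskeletal gene (2.73 and 6.78), Nr4a1 (2.11 and 4.11) and Bdnf, a growth factor gene (1.07 and 1.48). Of the muscle and heart partners 0 of 10 were open in either smaller list, and in the larger lists Vgll2 alone was open in both, at 0.353 and 0.341. Medians of promoter signal in the open lists ran from 4.17 to 6.15, beside 2.89 for all open coding genes and 4.02 for Mef2a. The lists were drawn up with earlier results of these data known, so these counts describe them and test nothing.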

How the data were processed

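Each DNase-seq library (n = 2, 1 group) came with 2 peak lists, 1 footprint list and 1 list of positions with an FDR. Per the deposited file descriptions, each was made by the authors from that library's own alignments on mm10, and replicates were not pooled; the aligner and callers are not given in the sources used here. Peak signal is the authors' deposited value, of unstated scale. The deposited p-value of a footprint was always 0.01, so footprints were not ranked. The depth of reads is unknown.

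Peaks, start regions (windows of 500 bp) and distal peaks (flanks of 100 kb) were joined to GENCODE M21 with Python 3.11.15, numpy 2.4.6 and pysam 0.24.0, after chromosome lengths were compared, and the counting was tested on simulated peaks. Consensus letters of 21 motifs were searched on both strands. Shares over all genes, regions or peaks are given as background; no test was made, because there is 1 group. The members, lists and motifs were chosen with earlier results of these data known. Peaks named were the promoter peaks, the 3 strongest shared distal peaks and the highest peak of 1 library of each gene, and shared peaks with MEF2 letters; from each list the 2 highest genes and exceptions of at most 3. Others were named after their values were seen. Alternatives were the larger lists, other windows, flanks and overlaps, stronger peaks, and each library alone.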

Additional observations from a re-analysis of the deposited data

How the results depend on the processing

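The counts of open Mef2 genes and start regions and the count of open pathway genes moved by less than 1.5 times under every alternative tried. The mean promoter signal, 3.88, was 3.88 in the larger lists and 3.83 with both libraries scaled to the same median of shared peaks. With 2 libraries a mean cannot move by 1 SD when 1 is left out, so the SD decides nothing there. Using only the gene's own start, 3 of the 4 genes were open, the exception being Mef2c. Leaving out a library gave 6 to 6 start regions, 4 to 4 genes, a mean signal of 2.98 to 4.78 and 34 to 36 pathway genes. The 29 shared distal peaks became 63 in the larger lists, 18 with flanks of 50 kb, 6 in the gene bodies alone, 18 among the stronger 50% of peaks, and 39 to 50 when all distal peaks of 1 library were counted. Their density of 2.50 per 100 kb over the 4 windows became 5.42 in the larger lists, 1.66 in the gene bodies, 1.55 among the stronger 50%, and 3.36 to 4.30 from 1 library. The 31 distal peaks of 1 library became 47 with a reciprocal overlap of 50%, 16 with flanks of 50 kb, 3 in the gene bodies, 12 among the stronger 50%, and 8 when absence from the larger list of the other was asked. They became 19 without the 10 kb around the C130071C03Rik start, an alternative chosen after seeing the data. Footprints of replicate 1 found in replicate 2, at starts and shared distal peaks together, fell from 52 to 33 with a reciprocal overlap of 50%, and 1 library alone gave 103 to 120. The 0 shared distal peaks with MEF2 letters became 4 in the larger lists. The alternatives differ from the main counts in the peaks, bases or libraries they admit. No paired analysis was possible because there is 1 group. With unknown read depth and 2 libraries, a peak present in 1 list and absent from another is not shown to be absent from the chromatin.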
